A study of Mus musculus with 59 samples.

Results

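RNA-seq of KLS cells at 3 weeks after induction was compared between mice labelled as lacking both Daxx and Pu.1 and mice lacking Daxx alone, to ask what the loss of Pu.1 adds to the loss of Daxx. KLS cells are lineage-negative, c-Kit-positive, Sca-1-positive bone marrow cells, a mixed pool of haematopoietic stem cells and multipotent progenitors. The comparison took all libraries of these genotypes in the table of normalized counts of KLS cells at that time, which came to 5 of the 59 samples of the series, 2 of Daxx F/F Pu.1 F/F mice (DKO, double knockout) and 3 of Daxx F/F mice (Daxx-KO). Of the 51810 genes listed, 25807 had a value above 0 in at least 1 library of the table, and 15200 had a mean normalized count of 10 or more and were tested.

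All animals were C57BL/6 and carried 1 copy of Mx1-Cre (Cre +/-), the controls included, and all received polyinosinic:polycytidylic acid (pI:pC), which turns the Mx1 promoter on through interferon. Mx1-Cre is active in many interferon-responsive cells, so deletion was not limited to KLS cells. The same table held 3 libraries of Daxx +/+ mice (WT), which entered the fit to help estimate the spread. Each library came from bone marrow of 1 animal as far as the animal numbers show. The third WT library carries no animal number in its label and is called the unnumbered WT library. The study's methods give only a usual range of ages at treatment for its mice, and the labels give no age for these animals.

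Pu.1, encoded by Spi1, is an ETS-family transcription factor. It binds purine-rich sites around the core GAGGAA, is required for the monocyte, dendritic cell and B cell lineages, and at high levels directs progenitors towards macrophages, whereas the C/EBP factors and Gfi1 direct them towards neutrophils. Daxx is a chaperone that places the histone variant H3.3 with Atrx at repeats and other silent chromatin. In stem and progenitor cells Pu.1 is already expressed and supports the receptors for Flt3 ligand and the macrophage and granulocyte colony-stimulating factors.

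The core that Pu.1 prefers can be read in the promoters of genes from both sides of this comparison. The stretches below were taken from RefSeq promoter sequence (GRCm38.p6), 5′ to 3′ on the strand of the gene, with GAGGAA in capitals. They were chosen after the values were seen, to show granule and cytokine receptor genes that were higher in DKO beside an integrin and progenitor transcription factors that were lower.
Mpo, chr11:87793534-87793592, plus strand, higher in DKO: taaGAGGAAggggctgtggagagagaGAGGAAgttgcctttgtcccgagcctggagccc
Elane, chr10:79886200-79886259, plus strand, higher in DKO: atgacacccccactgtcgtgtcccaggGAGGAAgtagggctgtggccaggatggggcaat
Prtn3, chr10:79879545-79879604, plus strand, higher in DKO: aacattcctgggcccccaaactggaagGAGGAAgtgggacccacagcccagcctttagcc
Ctsg, chr14:56102758-56102817, minus strand, higher in DKO: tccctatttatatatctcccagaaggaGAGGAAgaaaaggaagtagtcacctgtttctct
Csf3r, chr4:126024546-126024605, plus strand, higher in DKO: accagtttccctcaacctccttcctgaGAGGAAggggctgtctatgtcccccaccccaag
Itgam, chr7:128062529-128062588, plus strand, lower in DKO: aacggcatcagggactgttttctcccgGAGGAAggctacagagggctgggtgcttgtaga
Sox4, chr13:28953739-28953798, minus strand, lower in DKO: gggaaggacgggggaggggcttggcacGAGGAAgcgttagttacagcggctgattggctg
Mef2c, chr13:83503885-83503944, plus strand, lower in DKO: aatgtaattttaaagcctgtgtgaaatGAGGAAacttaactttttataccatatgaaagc

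The core lies 224 bases upstream of the start site in Mpo, with another copy at 247, 85 in Elane, 95 in Prtn3, 216 in Ctsg, 86 in Csf3r, 84 in Itgam, 72 in Sox4 and 122 in Mef2c. Over the window from 250 bases before to 50 after the start, 300 bases in all, GAGGAA was searched on both strands in the 10983 tested genes with a RefSeq promoter. It was present in 30.9% of them, in 31.1% of the genes that were higher in DKO (300 of 965) and in 34.3% of those that were lower (295 of 860). The C/EBP core TTGCGNAA was found in 1.4% of all promoters, 0.9% of those of higher genes and 1.4% of those of lower genes. A match is a description of the letters in this window and does not show that a factor binds there.

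The 8 KLS libraries of the table held 11384751 to 15812520 gene reads, and 19137 to 20424 genes were detected per library. Kit (c-Kit) and Ly6a (Sca-1), the markers of the sort, were present in all 5 compared libraries, Kit at normalized counts from 7782 to 10394 and Ly6a from 183.3 to 564.8. DKO replicate 1 was listed at 0 for 4 Y-linked genes, whose sum lay between 13.24 and 35.66 in the other 7 libraries. Daxx-KO replicate 2 stood apart in early B cell genes: Ebf1 was at 23895 there against 3512 and 1063 in the other Daxx-KO libraries, and Pax5 at 4998 against 383.6 and 80.56. Epx, a peroxidase of eosinophil granules, was at 8235 in Daxx-KO replicate 1 against 868.5 and 1621 in the other Daxx-KO libraries, and at 19211 in WT replicate 1. The unnumbered WT library stood apart in neutrophil genes, with Elane at 12857 against 849.5 and 1737 in the other WT libraries. The animal numbers of the DKO mice follow those of the numbered WT mice, and the Daxx-KO mice have numbers from another range. The labels do not say whether the ranges were handled apart. Between DKO and Daxx-KO, genotype and number range cannot be told apart.

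Daxx, on chr17:33909414-33915590 (GRCm38, as are all coordinates of genes here, from the GENCODE annotation), was low in both groups. Its normalized count was 93.9 and 78.07 in DKO, 82.59, 102.3 and 72.19 in Daxx-KO, while the WT libraries held 422.6, 466.9 and 505.2. The DKO and Daxx-KO values overlapped (log2 fold change 0.01, SE 0.26, limma adjusted p = 0.98).

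Spi1, the gene that the labels give as deleted in DKO, was not lower there. It lies on chr2:91082390-91115756, plus strand, and its normalized count was 3330 and 2993 in DKO against 1484, 1679 and 1482 in Daxx-KO, with WT libraries at 1676, 1669 and 2320. Both DKO libraries lay above all other libraries of the table, with a log2 fold change over Daxx-KO of 1.03 (SE 0.17, limma adjusted p = 0.0035). The call was lost without DKO replicate 1. The sources used here do not say which exons the floxed Pu.1 allele removes, and a count over the whole gene includes reads from exons that remain, so the level of Spi1 does not check the deletion. The 2 libraries are therefore the libraries labelled DKO throughout, and every direction below rests on that label.

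In the libraries labelled DKO, most tested genes of the primary granules of neutrophils rose, 11 of 14, as did the factors Cebpa, Cebpd and Cebpe. Flt3 and Cd34 fell, along with 7 of 29 lymphoid-priming genes, 3 of 6 Hoxa genes and partners, and 8 of 29 genes of the interferon response and nucleic acid sensing, of which 1 rose. Of 15200 genes tested, 2340 (15.4%) were called at a limma adjusted p under 0.05, 1242 of them higher (8.17%) and 1098 lower (7.22%) in DKO. In all 2340 the DKO libraries did not overlap the Daxx-KO libraries. Without regard to the test, 22.3% of genes had both DKO libraries above all 3 Daxx-KO libraries and 22.3% had both below. The median log2 fold change of all genes tested was -0.01.

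More of the large changes were rises. Among called genes, 792 rose and 671 fell by more than 1 on the log2 scale, 356 rose and 241 fell by more than 2, and 115 rose and 32 fell by more than 4. Leaving out DKO replicate 1 reduced the calls to 334 higher and 338 lower, and leaving out Daxx-KO replicate 1 or 3 reduced them to 1387 and 1457 in all. In bulk libraries, a change in the share of cells that express a gene and a change in RNA per cell cannot be told apart.

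**Figure D1:**
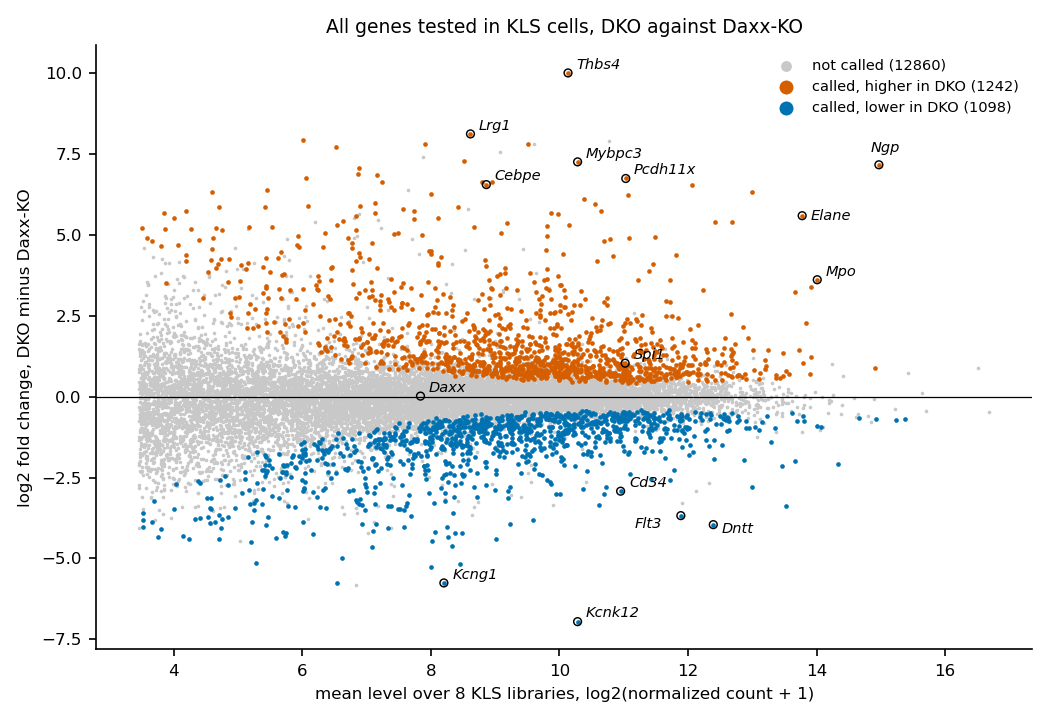
Log2 fold change of DKO over Daxx-KO in KLS cells (vertical) against the mean level of each tested gene over 8 libraries, as log2(normalized count + 1) (horizontal), 1 point per gene. The 1242 genes called higher (orange) and 1098 called lower (blue) lie at all levels of expression, with Thbs4 at 9.99 and Kcnk12 at -6.95 as the farthest of the circled genes.

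The largest rise was that of Thbs4, a secreted matrix protein of the thrombospondin family on chr13:92751590-92794818. Its normalized count was 5922 and 3044 in DKO and 2.26, 9.87 and 1.05 in Daxx-KO, with no WT library above 3 (log2 fold change 9.99, SE 0.90, adjusted p = 0.0002). Thus a gene that was nearly silent in the other groups stood among the well expressed genes of both DKO libraries.

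Mybpc3, which encodes a myosin-binding protein of heart muscle, starts 2387 bases beyond the end of Spi1 on the same strand (chr2:91118144-91136516). It was at 6428 and 3333 in DKO and at 49.78, 28.71 and 17.78 in Daxx-KO, and between 14.05 and 49.02 in the WT libraries (log2 fold change 7.25, SE 0.59, adjusted p = 0.00013). Of 12 neighbours of Spi1 that were tested, Mybpc3 was the one gene called, and the median log2 fold change of the 12 was -0.07. Without Daxx-KO replicate 2, 2 of them were higher. Slc39a13, a zinc transporter and the next gene along in the list, had 29.7 and 61.68 in DKO against 39.6, 47.55 and 91.02. How the reads were assigned by strand is not given in the sources used here, and whether transcripts that run past the end of Spi1 contribute to the Mybpc3 count was not tested.

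Pcdh11x, a protocadherin on chrX:120290259-120910619, had 8739 and 7602 in DKO against 61.1, 209.1 and 33.48 (log2 fold change 6.73, SE 0.63, adjusted p = 0.00026). The gene overlaps 4 other annotated genes, so part of its count could belong to them. Rhou, a small GTPase on chr8:123653929-123663884, had 1425 and 1268 against 4.53, 6.28 and 15.69 (log2 fold change 7.26, adjusted p = 0.0027). It too overlaps another annotated gene. Ccno, a cyclin-like protein needed for multiciliated cells (chr13:112987802-112990777), was at 279.8 and 207.2 in DKO and listed at 0 in all Daxx-KO libraries, at least 79.2-fold higher when each Daxx-KO library is set at 3 counts.

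Markers of the neutrophil lineage were among the largest rises too. Lrg1, a glycoprotein of neutrophil granules on chr17:56119678-56122001, was at 1638 and 1282 in DKO and at 7.92, 15.25 and 0 in Daxx-KO (log2 fold change 8.11, SE 1.42, adjusted p = 0.0047). Chit1, a chitinase of phagocytes (chr1:134111242-134151540), was at 1042 and 819.2 against 6.79, 3.59 and 1.05 (log2 fold change 7.79, adjusted p = 0.0066). In both genes the unnumbered WT library, at 168.1 and 38.02, stood above the other WT libraries. Ranks 4 and 6 among the rises were immunoglobulin variable segments. Of 126 immunoglobulin segments tested, 4 were higher and 1 lower.

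The largest fall was that of Kcnk12, a two-pore potassium channel subunit on chr17:87745801-87797994. Its normalized count was 5.75 and 18.31 in DKO and 1681, 1137 and 1467 in Daxx-KO, with WT libraries between 1456 and 2191 (log2 fold change -6.95, SE 0.39, adjusted p = 5.4e-05). The Daxx-KO and WT levels overlapped, and both DKO libraries lay far under them.

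Among the other large falls, Kcng1, Cnn3 and Chga had all Daxx-KO libraries above the WT libraries, without regard to a test between these groups. Kcng1, a modifying subunit of voltage-gated potassium channels (chr2:168260117-168281736), was at 8.62 and 13.49 in DKO, 649.4, 905.3 and 439.4 in Daxx-KO and 79.98 to 158 in WT. Cnn3, an actin-binding calponin that overlaps 2 annotated transcripts (chr3:121426497-121458207), was at 32.58 and 10.6 in DKO, 640.4, 1320 and 434.2 in Daxx-KO and 65.93 to 162.4 in WT. In Chga, chromogranin of secretory granules (chr12:102554969-102565028), the values were 0.96 and 26.02 in DKO, 192.3, 250.3 and 252.1 in Daxx-KO and 6 to 27.02 in WT. Drc7, part of the regulator of ciliary dynein (chr8:95055103-95078141), went from 525, 1252 and 307.6 in Daxx-KO to 13.41 and 38.55. The log2 fold changes of DKO over Daxx-KO in these genes were -5.75 for Kcng1, -5.18 for Cnn3, -4.99 for Chga and -4.62 for Drc7, at adjusted p between 8.9e-05 and 0.0096.

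Cds1, which makes the phospholipid precursor CDP-diacylglycerol and overlaps 2 annotated transcripts (chr5:101765130-101823858), was at 0 and 23.13 in DKO and at 126.7, 125.6 and 111.9 in Daxx-KO. AC174780.1, an unnamed transcript on chr5:11137279-11193590 that overlaps 2 other annotated genes, was at 8.62 and 5.78 against 725.2, 198.3 and 207.1. Their log2 fold changes were -4.64 (adjusted p = 0.013) and -5.27 (adjusted p = 0.00045). Both genes had WT libraries above the DKO libraries as well, at 198.9 to 256.1 for Cds1 and 203.9 to 444.2 for the transcript.

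**Figure D2:**
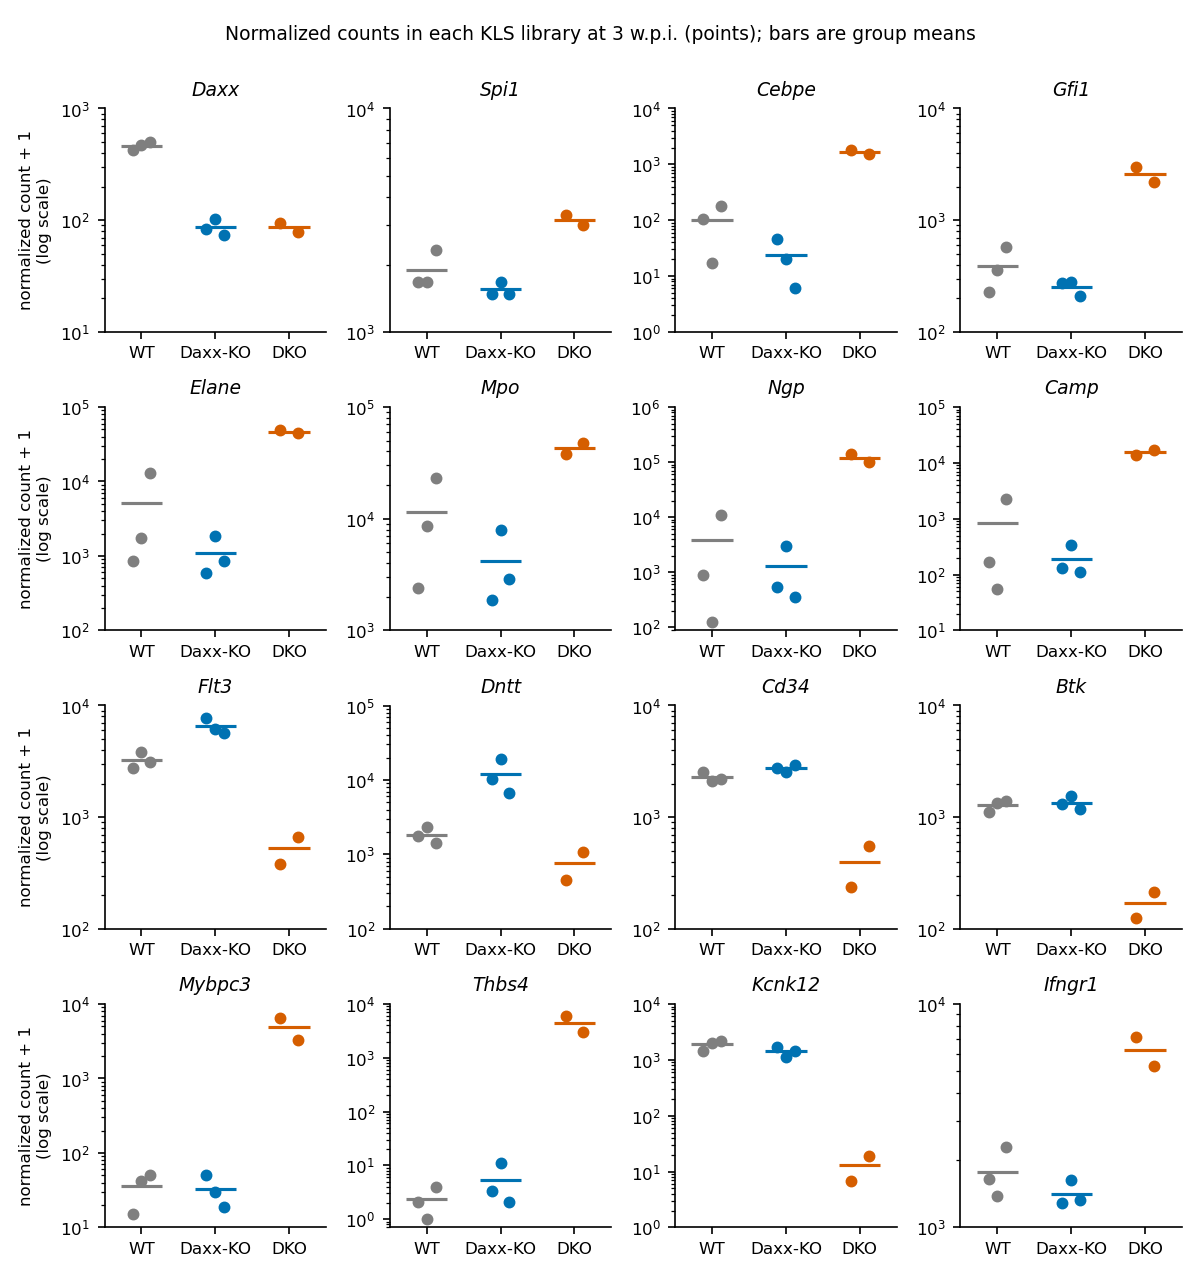
Normalized count plus 1 (log axis) of 16 genes in each WT, Daxx-KO and DKO library of KLS cells at 3 weeks, with points for libraries and bars for group means. Both DKO points lie above all others for Thbs4, Mybpc3 and the granule genes and below all others for Flt3, Cd34, Btk and Kcnk12, and those of Daxx lie with the Daxx-KO points.

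Transcription factors of myeloid commitment moved in both directions. Of 15 tested, 5 rose and 2 fell, and the median log2 fold change was -0.05. Cebpe, which drives the late steps of granulocyte maturation, was at 1813 and 1534 in DKO against 45.26, 18.84 and 5.23 in Daxx-KO (log2 fold change 6.54, SE 0.99, adjusted p = 0.0022). Cebpa, the factor that starts granulocyte commitment, was at 1234 and 1182 against 186.7, 310.4 and 218.7 (2.37, SE 0.36, adjusted p = 0.0021). The DKO libraries of both genes lay above every Daxx-KO and WT library.

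Cebpd was at 556.7 and 440.4 against 61.1, 68.19 and 73.23 (log2 fold change 2.86, SE 0.55, adjusted p = 0.0076). Gfi1, a repressor that favours neutrophils over monocytes, was at 2979 and 2207 against 273.8, 279 and 207.1 (3.35, SE 0.34, adjusted p = 0.00036). Cebpb, the factor of emergency granulopoiesis, gave 74.73 and 76.14 against 28.29, 39.48 and 47.08, a difference of 0.99 that did not pass (adjusted p = 0.21). Irf8, which directs progenitors to monocytes and dendritic cells, was at 168.6 and 185 in DKO and 536.3, 2774 and 798.2 in Daxx-KO (-2.58, SE 0.68, adjusted p = 0.03). Without DKO replicate 1 the counts in this list were 3 higher and 1 lower, and without Daxx-KO replicate 3 or without DKO replicate 2 the number lower was 1, Irf8 having lost its call in all 3 cases.

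Transcription factors that the study names as regulated by Pu.1 were read as a list. Of 38 tested, 9 were higher and 10 lower in DKO, with a median log2 fold change of -0.18. Because the study chose the list on its own samples, it is not independent evidence of a direction. Arid3a, a DNA-binding protein of stem and B cells, was at 2902 and 1876 against 599.7, 857.8 and 630.8 (1.76, adjusted p = 0.019). Bcl11a, a repressor needed for lymphoid progenitors, was at 2990 and 3655 against 8292, 5194 and 7470 (-1.05, adjusted p = 0.011). Ccnd1, the G1 cyclin D1, was at 86.23 and 147.5 against 644.9, 571.5 and 593.2 (-2.41, SE 0.27, adjusted p = 0.00053). The counts were 4 higher and 5 lower without DKO replicate 1, and 5 higher without Daxx-KO replicate 1. Arid3a was not called without either of these libraries or Daxx-KO replicate 3.

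Genes of the primary granules, the first granules of the neutrophil lineage, were higher in DKO. Of 14 tested, 11 rose, and 12 had both DKO libraries above all Daxx-KO libraries, beside 22.3% of all genes tested. The median log2 fold change was 3.00. Elane, neutrophil elastase, was at 49324 and 44193 in DKO and at 583.8, 1862 and 845.3 in Daxx-KO (log2 fold change 5.58, SE 0.91, adjusted p = 0.0032). Mpo, myeloperoxidase, was at 37886 and 47431 against 1859, 7891 and 2869 (3.61, SE 0.82, adjusted p = 0.016). The call of Mpo was lost without either DKO library or Daxx-KO replicate 1 or 3. Both genes are textbook products of the promyelocyte stage.

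Ctsg, cathepsin G, was at 11694 and 11712 against 319.1, 1241 and 457.2 (log2 fold change 4.37, SE 0.81, adjusted p = 0.0061). Hp, haptoglobin, was at 6393 and 4864 against 76.94, 230.6 and 62.77 (5.73, SE 0.96, adjusted p = 0.0037). Nkg7, a granule membrane protein shared with cytotoxic lymphocytes, was at 2175 and 2502 against 244.4, 431.6 and 234.3 (3.00, SE 0.37, adjusted p = 0.00079). In these genes the groups lay far apart, with Daxx-KO replicate 2 the highest of its group. Without DKO replicate 1, 5 members were called.

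Genes of later neutrophil stages rose as a list but unevenly. Of 19 tested, 11 rose, and the median log2 fold change was 4.10. Ngp, a secondary granule protein on chr9:110419747-110423012, reached 140992 and 100171 in DKO against 542, 2949 and 359.9 (7.16, SE 1.49, adjusted p = 0.011). Camp, the cathelicidin peptide on chr9:109847379-109849617, was at 14066 and 17221 against 129, 334.7 and 110.9 (6.52, SE 1.20, adjusted p = 0.0059). Olfm4, a secondary granule glycoprotein, was at 1347 and 1117 against 40.73, 43.07 and 4.18 (5.86, SE 1.29, adjusted p = 0.014), a call lost without either DKO library.

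Ltf, lactoferrin of the secondary granules and the first gene of the list, did not follow them. It was at 189.7 and 440.4 in DKO against 178.8, 1265 and 87.88 in Daxx-KO, so that the groups overlapped (log2 fold change 0.09, SE 1.83, adjusted p = 0.98). Ly6g, the surface marker of mature neutrophils, was chosen after its values were seen: it was at 26.83 and 74.21 in DKO and listed at 0 in all 3 Daxx-KO libraries. Summed over the list, the normalized counts were 149724 to 183999 in DKO, 3733 to 10691 in Daxx-KO and 3180 to 40407 in WT, the highest WT value being that of the unnumbered library. Gr-1 and CD11b, surface proteins of neutrophils, were in the lineage panel removed by the sort, and whether cells that escaped it contribute to these rises was not tested. The number called was 1 without DKO replicate 1, 4 without DKO replicate 2, 6 without Daxx-KO replicate 1 or 3, and 3 with DESeq2.

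Genes known to depend on Pu.1 in myeloid cells split between rises and falls. Of 32 tested, 7 rose and 9 fell, and the median log2 fold change was -0.74. Btk, a cytoplasmic kinase of B and myeloid cells, was at 125.5 and 214 in DKO against 1301, 1549 and 1195 in Daxx-KO (-3.02, SE 0.23, adjusted p = 0.0001). Fcgr2b, the inhibitory IgG receptor, was at 191.6 and 120.5 against 1248, 1153 and 1087 (-2.93, SE 0.39, adjusted p = 0.0012). WT libraries of Btk were at 1114 to 1396, level with Daxx-KO, whereas those of Fcgr2b were at 176.5 to 512.2, nearer to DKO.

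Clec7a, the beta-glucan receptor dectin-1, rose to 622.8 and 396.1 from 55.44, 62.81 and 82.65 (log2 fold change 2.89, SE 0.49, adjusted p = 0.0041). Fcer1g, the signalling chain shared by several Fc receptors, rose to 1844 and 1250 from 200.3, 375 and 161.1 (2.72, SE 0.38, adjusted p = 0.0015). Itgam, which encodes CD11b, was at 96.77 and 176.4 against 758.1, 909.8 and 920.6 (-2.71, SE 0.45, adjusted p = 0.0034), and was added to the named genes for its promoter, shown above. Csf1r and Csf2ra, receptors that Pu.1 controls in macrophages, did not pass the test. Csf1r was at 54.61 and 257.3 against 184.4, 476.4 and 209.2 (adjusted p = 0.27), and Csf2ra was at 77.61 and 97.34 against 153.9, 215.3 and 130.8 (adjusted p = 0.14). When DKO replicate 1 was left out, 2 members were higher and 4 lower.

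Among 16 tested genes of monocytes and dendritic cells, 3 were lower, beside 7.22% of all genes, and the median log2 fold change was -0.92. Tcf4, the factor of plasmacytoid dendritic cells, was at 4227 and 4639 against 7446, 7432 and 7175 (-0.73, SE 0.14, adjusted p = 0.0061). Cx3cr1, the fractalkine receptor, gave 145.6 and 203.4 against 98.43, 118.4 and 96.25 (adjusted p = 0.3). Ly6c2, the surface protein Ly6C, gave 5987 and 5827 against 700.4, 842.5 and 1618, which did not pass (2.58, SE 0.84, adjusted p = 0.068), with WT libraries spread from 275.4 to 2801. The number lower was 1 without Daxx-KO replicate 3, and without DKO replicate 1 no member was called by limma.

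Of 9 MHC class II genes tested, 2 were lower, beside 7.22% of all genes, and both act in the loading of peptides. H2-DMa, part of the peptide exchange factor, was at 217.5 and 259.2 against 431.1, 780.6 and 593.2 (-1.30, SE 0.24, adjusted p = 0.0068). H2-Ob, its inhibitor, was at 73.77 and 79.99 against 268.1, 551.8 and 253.2 (-2.11, SE 0.36, adjusted p = 0.0038). The chains that present peptide overlapped between the groups, H2-Aa with 262.5 and 99.27 against 139.2, 327.5 and 256.3, as did the invariant chain Cd74 with 2636 and 2682 against 1713, 2397 and 3239. When DKO replicate 1 was left out, 1 member was lower.

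**Figure D3:**
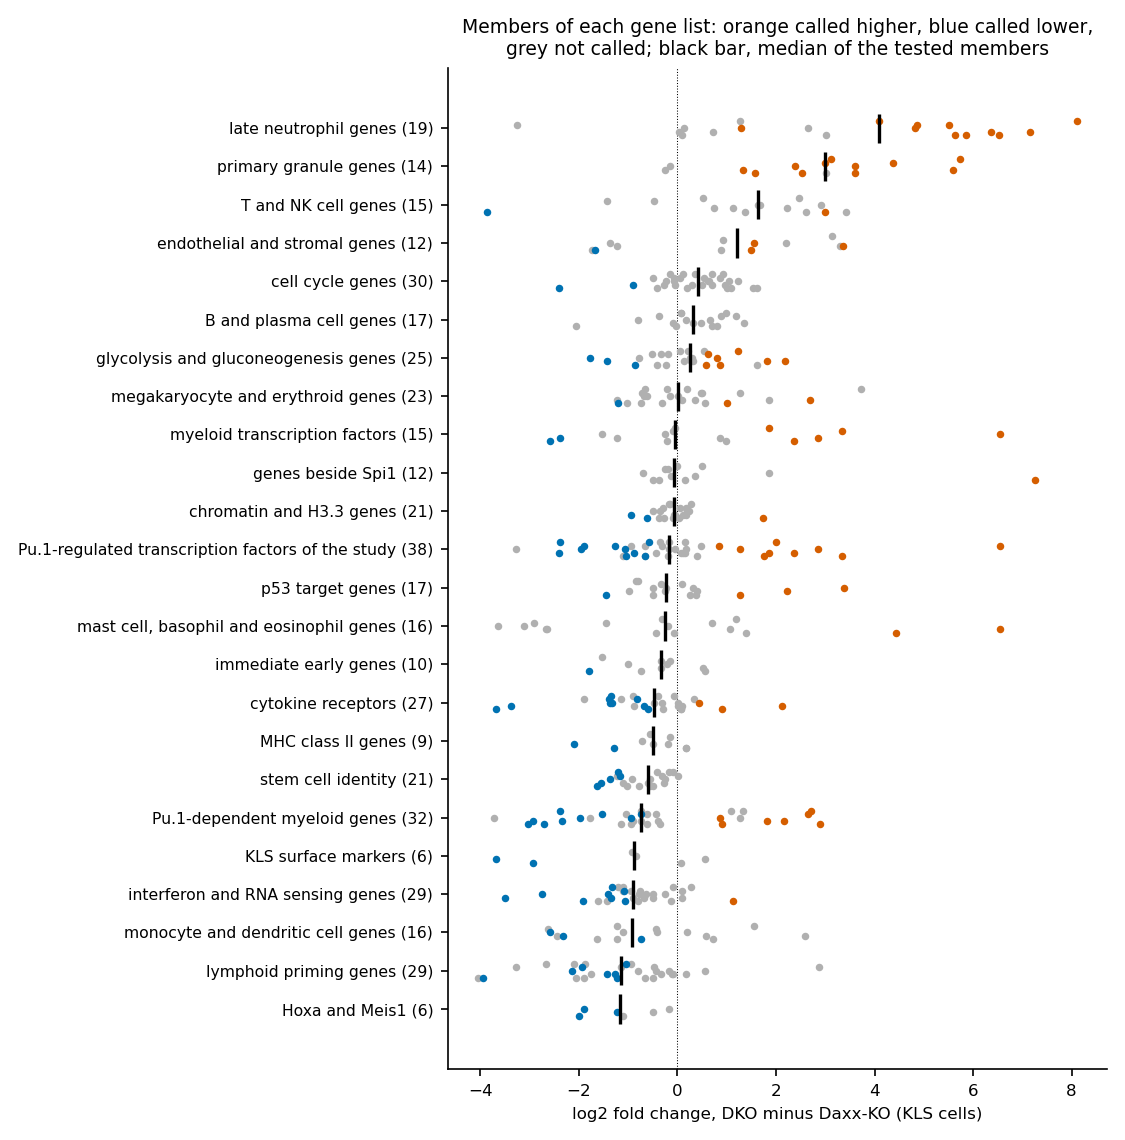
Log2 fold change of DKO over Daxx-KO (horizontal) for each tested member of each gene list, with the number tested in brackets, members called higher in orange, called lower in blue and not called in grey, and the median as a black bar. The late neutrophil list has its median at 4.10 and the primary granule list at 3.00, and the Hoxa and Meis1 list is at the other end with -1.17.

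Receptors for cytokines were mostly lower where they were called. Of 27 tested, 3 rose and 9 fell, and the median log2 fold change was -0.48. Flt3, the receptor that marks lymphoid-primed progenitors (chr5:147330741-147400489), was at 381.3 and 669.8 in DKO and at 7765, 6176 and 5664 in Daxx-KO (-3.68, SE 0.25, adjusted p = 8.9e-05). WT libraries were at 2761 to 3824, between the other groups. Il6st, the gp130 signalling chain, was at 726.2 and 777.8 against 1931, 2191 and 1826 (-1.39, SE 0.16, adjusted p = 0.00063).

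Ifngr1, the ligand-binding chain of the interferon gamma receptor, was among the receptors that rose. It was at 7137 and 5252 in DKO against 1289, 1630 and 1329 (log2 fold change 2.12, SE 0.23, adjusted p = 0.00043). Csf3r, the receptor of granulocyte colony-stimulating factor, was at 2696 and 2160 against 1152, 1333 and 1403 (0.90, SE 0.15, adjusted p = 0.0037), added for its promoter as above, and overlapped the WT libraries at 2150 to 2355. Csf2rb2, the interleukin-3 receptor chain specific to mice, was at 19.16 and 20.24 against 262.5, 231.5 and 160.1 (-3.37, SE 0.33, adjusted p = 0.00031). It is a near copy of Csf2rb, so reads could have been divided between them. Kit, the receptor for stem cell factor, was at 9846 and 9961 against 10394, 7782 and 10143 and was not called (0.08, SE 0.19, adjusted p = 0.83). Without DKO replicate 1, 1 receptor was higher and 5 were lower.

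Genes of lymphoid priming fell where they were called. Of 29 tested, 7 fell, and the median log2 fold change was -1.15. Dntt, terminal transferase of early lymphoid cells (chr19:41029275-41059525), was at 457 and 1094 in DKO and 10360, 18887 and 6767 in Daxx-KO (-3.96, SE 0.44, adjusted p = 0.00051). The WT libraries, at 1409 to 2314, lay between the groups, and Dntt was higher in Daxx-KO than in WT (2.62, adjusted p = 0.029).

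Sox4, a factor of early B and T cell development, was at 308.5 and 443.3 against 1650, 1897 and 1411 (log2 fold change -2.15, SE 0.20, adjusted p = 0.00021). Mef2c, which favours the lymphoid fate, was at 2410 and 3020 against 11022, 9258 and 11014 (-1.95, SE 0.16, adjusted p = 0.00015). Tespa1, needed for thymocyte selection, was at 665.9 and 628.4 against 1779, 1747 and 1689 (-1.42, SE 0.17, adjusted p = 0.00068). Values of these genes were close within each group, and Daxx-KO replicate 2 did not stand apart in them. Without Daxx-KO replicate 2, the library with high Ebf1 and Pax5, 7 members were called lower as well.

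B cell and plasma cell genes, given as a check on the sort, were not called. None of 17 passed by limma, 0 had an unadjusted p under 0.05, and edgeR and DESeq2 called 0, while 1 was higher without the unnumbered WT library. Ms4a1, a B cell surface protein, was listed at 0 in all 8 libraries. The summed list reached 189765 and 211057 in DKO, 57913 to 150940 in Daxx-KO and 4883 to 126910 in WT, most of it from Ighm, which was added here after its values were seen. For T and NK cells, 1 of 15 genes rose and 1 fell, close to the 15.4% called among all genes. Cd3e was at 87.19 and 5.78 against 0, 16.15 and 7.32, and Cd3d at 88.15 and 7.71 against 0, 8.08 and 9.42, both highest in DKO replicate 1. The gene called higher was Nkg7, described above among the granule genes. Without Daxx-KO replicate 2 the number higher was 3 and without DKO replicate 2 it was 2, and the member called lower, Ncr1, was not called without Daxx-KO replicate 2 or 3 or DKO replicate 1.

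Genes that mark stem cells were lower where they were called. Of 21 tested, 5 fell, beside 7.22% called lower among all genes, and the median log2 fold change was -0.60. Tek, the angiopoietin receptor Tie2, was at 135.1 and 172.5 in DKO against 415.2, 402.9 and 653.9 (-1.64, SE 0.26, adjusted p = 0.0028). Prdm16, which maintains stem cells, was at 928.4 and 1401 against 4983, 1717 and 4418 (-1.56, SE 0.42, adjusted p = 0.033), a call lost without either DKO library or Daxx-KO replicate 1 or 3. Vldlr, a lipoprotein receptor, was at 227.1 and 351.8 against 716.2, 660.4 and 826.5 (-1.37, SE 0.22, adjusted p = 0.0031). Gata2, a factor of stem and mast cells, was at 812.5 and 886.7 against 1859, 1946 and 2074 (-1.21, SE 0.26, adjusted p = 0.013).

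Mecom and Hlf, factors of long-term stem cells, did not pass the test. Mecom was at 6586 and 7965 against 20644, 8211 and 18954 (adjusted p = 0.1), and Hlf at 4816 and 7845 against 13221, 5164 and 11912 (adjusted p = 0.32). In both genes Daxx-KO replicate 2 lay with or near the DKO libraries. Without that library 11 members of the list were lower, against 3 without Daxx-KO replicate 1 or 3 and 2 without DKO replicate 1. Adgrl4, an adhesion receptor of endothelial and stem cells and one of the largest falls among highly expressed genes (chr3:151437887-151545086), was at 911.2 and 1867 against 14920, 8973 and 18117 (-3.36, SE 0.34, adjusted p = 0.00036). BC035044, an uncharacterised gene on chr6:128849090-128891126 that overlaps 3 other genes, was at 188.8 and 255.4 against 2039, 2955 and 1936 (-3.36, SE 0.27, adjusted p = 0.00014).

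Cd34, a surface sialomucin that separates long-term stem cells from the progenitors after them, was at 234.7 and 554.2 in DKO against 2777, 2527 and 2931 in Daxx-KO (log2 fold change -2.92, SE 0.29, adjusted p = 0.00031). WT libraries were at 2091 to 2541. Of 6 tested surface markers that define or divide KLS cells, Cd34 and Flt3 were lower, and the median was -0.89. The other markers that divide the pool, Cd48 and Slamf1 (CD150), were not called, nor were Kit and Ly6a of the sort itself. Cd48 was at 484.8 and 315.1 against 704.9, 812.9 and 607.8 (-0.85, SE 0.26, adjusted p = 0.057), and Slamf1 at 133.2 and 133 against 288.5, 140 and 404.9 (-0.93, SE 0.48, adjusted p = 0.24).

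Of 6 tested members of the list of Hoxa genes, which sustain progenitor growth, with their partners, 3 fell and 3 were not called, and the median log2 fold change was -1.17. Hoxa7 was at 121.7 and 197.6 against 648.3, 686.4 and 552.4 (-2.01, SE 0.33, adjusted p = 0.0036). Hoxa9 was at 253.9 and 299.7 against 781.8, 601.1 and 582.7 (-1.23, SE 0.31, adjusted p = 0.026). Hoxa10 was at 35.45 and 58.79 against 196.9, 144.4 and 184.1 (-1.90, SE 0.34, adjusted p = 0.0052). These DKO values lay under every WT value as well, except that Hoxa9 at 299.7 in DKO replicate 2 exceeded the 292.1 of the unnumbered WT library. No member was called by limma without DKO replicate 1, Hoxa9 was also lost without DKO replicate 2 or Daxx-KO replicate 1 or 3, and 5 members were lower without Daxx-KO replicate 2.

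Of 23 megakaryocyte and erythroid genes tested, 2 rose and 1 fell, close to the 15.4% called among all genes, and the median log2 fold change was 0.00. DESeq2 on recovered reads called 4 higher and 5 lower. Itga2b, the platelet integrin CD41, was at 722.4 and 964.7 against 398.3, 419.9 and 432.1 (1.00, SE 0.19, adjusted p = 0.0063), level with WT at 816.5 to 1086. Gata1, the master factor of both lineages, was at 35.45 and 38.55 against 58.83, 97.8 and 41.85 (adjusted p = 0.27). The number lower was 4 without Daxx-KO replicate 2 and 3 without DKO replicate 2 or the unnumbered WT library, and the number higher was 1 without Daxx-KO replicate 1 or either DKO library.

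Among 16 genes of mast cells, basophils and eosinophils, 2 rose, a share close to the 15.4% called among all genes. These were Cebpe and Mcpt8. Mcpt8, a basophil protease, was at 464.7 and 343.1 against 6.79, 54.73 and 13.6 (log2 fold change 4.44, SE 0.79, adjusted p = 0.0052). Cpa3, a protease of mast cells and their precursors, was at 473.3 and 463.6 against 156.1, 363.4 and 99.39 (1.39, adjusted p = 0.096). Of 12 endothelial and stromal genes, 3 rose and 1 fell, beside 15.4% called among all genes. Pecam1, an adhesion protein that haematopoietic cells share with endothelium, was at 10162 and 7024 against 3048, 3213 and 2767 (1.49, SE 0.20, adjusted p = 0.0012). Emcn, a sialomucin of endothelium and stem cells, was at 87.19 and 149.4 against 431.1, 256.6 and 440.4 (-1.67, SE 0.30, adjusted p = 0.0051). Cdh5, which defines endothelium, was at 36.41 and 34.7 against 10.18, 30.51 and 20.92 and did not pass. Without DKO replicate 1, 1 gene of each of these lists was higher. Without Daxx-KO replicate 1 or WT replicate 1, 1 endothelial or stromal gene was higher, and without WT replicate 2, 2 mast cell, basophil or eosinophil genes were lower.

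Sensors and effectors of the interferon response were lower where they were called, with 1 exception. Of 29 tested, 8 fell and 1 rose, and the median log2 fold change was -0.91. Oas2, which makes the signal that activates RNase L, was at 32.58 and 7.71 in DKO against 190.1, 199.2 and 191.4 (-3.51, SE 0.58, adjusted p = 0.0035). Oas1a, of the same family, was at 48.86 and 75.17 against 175.4, 272.8 and 255.3 (-1.91, SE 0.37, adjusted p = 0.0075). Oas3 was at 129.3 and 170.6 against 306.6, 491.7 and 420.6 (-1.42, SE 0.39, adjusted p = 0.034), a call lost without either DKO library or Daxx-KO replicate 2 or 3. Tmem173, which encodes the DNA-sensing adaptor STING, was at 393.8 and 422.1 against 1016, 1237 and 887.2 (-1.35, SE 0.18, adjusted p = 0.0013).

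Ifit1 and Ifit2, classical interferon-stimulated genes, did not pass. Ifit1 was at 50.78 and 99.27 against 143.7, 297 and 171.6 (adjusted p = 0.12), and Ifit2 at 565.3 and 493.4 against 634.7, 873 and 743.8 (adjusted p = 0.15). The DKO libraries of both lay under all Daxx-KO libraries, as they did for 17 of the 29 members and for 22.3% of all genes tested. The gene that rose was Sp100, a nuclear body protein that binds Daxx; it was singled out after its values were seen, at 6620 and 4529 against 2447, 2471 and 2559 (1.14, SE 0.17, adjusted p = 0.002). Since pI:pC itself induces these genes, all groups had been exposed to that stimulus. The number lower was 5 without Daxx-KO replicate 3 and 2 without DKO replicate 1.

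Cell cycle genes were mostly not called. Of 30 tested, 2 fell, a smaller share than the 15.4% called among all genes, and the median log2 fold change was 0.42. Both were D-type cyclins of entry into the cycle. Ccnd2 was at 2483 and 2775 against 4527, 5735 and 4581 (-0.91, SE 0.15, adjusted p = 0.0031), and Ccnd1 was described above. Mki67, the proliferation marker, was at 49799 and 18102 in DKO against 9960, 33269 and 10204, so that Daxx-KO replicate 2 lay between the DKO libraries (1.00, SE 0.61, adjusted p = 0.31). Top2a, a topoisomerase of dividing cells, was at 14271 and 9040 against 5234, 12252 and 5274 (0.71, adjusted p = 0.34). Without Daxx-KO replicate 2, 5 members were higher.

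Of 17 targets of p53, 3 rose and 1 fell, beside 15.4% called among all genes, and the median log2 fold change was -0.23. Perp, an effector of cell death, was at 608.4 and 578.3 against 103, 35.89 and 47.08 (3.38, SE 0.69, adjusted p = 0.01). Fas, the death receptor, was at 215.6 and 169.6 against 28.29, 46.66 and 48.12 (2.23, SE 0.38, adjusted p = 0.0042). Bbc3, the BH3-only protein Puma, was at 221.3 and 159 against 62.23, 84.34 and 86.83 (1.28, SE 0.31, adjusted p = 0.023). Sesn2, a stress-induced regulator of mTOR signalling, was the gene that fell, at 71.86 and 80.96 against 219.5, 201.9 and 209.2 (-1.45, SE 0.29, adjusted p = 0.0094). Cdkn1a and Mdm2, the best known targets, did not pass, Cdkn1a with overlapping groups (195.5 and 98.3 against 143.7, 311.3 and 167.4). Without DKO replicate 1 no member of the list was called by limma.

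Enzymes of glycolysis and gluconeogenesis included 7 that rose and 3 that fell of 25 tested, with a median log2 fold change of 0.25. Gpi1, glucose-6-phosphate isomerase, was at 15503 and 10205 against 3306, 4276 and 3187 (1.82, SE 0.25, adjusted p = 0.0013). Pfkfb4, which sets the level of the activator of phosphofructokinase, was at 1456 and 1049 against 320.2, 250.3 and 247.9 (2.19, SE 0.32, adjusted p = 0.0019). Ldhb, a lactate dehydrogenase subunit, was at 79.52 and 143.6 against 353, 358 and 393.4 (-1.77, SE 0.27, adjusted p = 0.0023). Aldoc, an aldolase, was at 26.83 and 53.01 against 76.94, 116.6 and 123.5 (-1.43, SE 0.41, adjusted p = 0.043). The call of Aldoc was lost with edgeR (adjusted p = 0.061), without the filter on low values, without the WT libraries, and on leaving out any single library other than DKO replicate 2.

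Fbp1, the fructose-bisphosphatase of gluconeogenesis, was above WT in both knockout groups and did not differ detectably between them. Its normalized count was 498.2 and 350.8 in DKO, 298.7, 359.8 and 401.7 in Daxx-KO and 139.4, 101.5 and 92.04 in the WT libraries (DKO over Daxx-KO 0.25, SE 0.27, adjusted p = 0.59). Fbp2, its muscle form, was at 0 and 1.93 against 7.92, 1.79 and 1.05 and was under the filter. Of the list, 3 members were higher without Daxx-KO replicate 1 or 3, and 2 without DKO replicate 1.

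Of 21 tested genes of histone H3.3, its chaperones and the heterochromatin machinery, 1 rose and 2 fell, close to the 15.4% called among all genes, and the median log2 fold change was -0.07. Atrx, the partner of Daxx, was at 11046 and 7701 against 8416, 10946 and 7894 (0.04, SE 0.20, adjusted p = 0.93), and the H3.3 gene H3f3a was at 458.9 and 697.8 against 399.4, 633.4 and 508.4. Dnmt3b, a de novo DNA methyltransferase, was lower at 710 and 830.8 against 1572, 1519 and 1333 (-0.94, SE 0.18, adjusted p = 0.0069). Asf1b, an H3 chaperone of S phase, was higher at 1046 and 674.6 against 201.4, 489.9 and 163.2 (1.73, adjusted p = 0.032), and Cbx1, a heterochromatin protein, was lower at 1490 and 1244 against 2033, 2544 and 1749 (-0.61, adjusted p = 0.042). None of these was called without DKO replicate 1, and Dnmt3b kept its call without any other single library. Asf1b was not called without DKO replicate 2, Daxx-KO replicate 1 or Daxx-KO replicate 3 either, nor with edgeR (adjusted p = 0.054). Cbx1 was also lost without DKO replicate 2, Daxx-KO replicate 1 or 2, or WT replicate 1 or 2, and without the filter on low values. Of 10 immediate early genes, which can rise while cells are handled, 1 was lower, beside 7.22% called lower among all genes. It was Nr4a1, at 39.28 and 13.49 against 57.7, 107.7 and 91.02 (-1.79, adjusted p = 0.047). Its call was lost with edgeR and without any single Daxx-KO library, DKO replicate 2 or WT replicate 1 or 2. Fos gave 28.74 and 59.75 against 112, 64.6 and 48.12.

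Repeats were counted by subfamily in the same libraries. There were 22.041 and 24.362 repeat reads per 100 gene reads in DKO, 19.34 to 28.606 in Daxx-KO and 27.203 to 28.253 in WT. Of 834 subfamilies tested with edgeR, 7 were called (0.839%), 3 higher (0.360%) and 4 lower (0.480%). All 4 that fell were internal parts of ERVK endogenous retroviruses, a class that Daxx and H3.3 help to silence. Of those that rose, RLTR13A1 is an ERVK element as well. The share of ERVK among all subfamilies tested was not counted, so the 4 cannot be set against it. Summed as a family without IAP elements, ERVK was not called (-0.11, edgeR adjusted p = 0.41). Values for subfamilies and families are CPM of repeat reads after TMM scaling.

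IAPLTR3-int, an intracisternal A particle (IAP), was at 120.4 and 100.8 in DKO and 384.5, 428 and 340.6 in Daxx-KO (log2 fold change -1.80, SE 0.17, adjusted p = 0.0011), with WT libraries at 71 to 102. It was higher in Daxx-KO than in WT (2.17, adjusted p = 6.4e-05), so that the DKO libraries sat near the WT level. IAPA_MM-int was at 19.3 and 38.8 against 72, 92.6 and 83.9 (-1.51, adjusted p = 0.05), just inside the threshold before rounding. MMERVK10D3_I-int was at 80.4 and 104.3 against 213.6, 219.1 and 197.4 (-1.19, adjusted p = 0.049), and IAPEY4_I-int at 301.9 and 330 against 726.9, 754.7 and 572.9 (-1.11, SE 0.15, adjusted p = 0.01).

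RLTR13A1, the long terminal repeat of an ERVK element, rose to 194.6 and 193.3 from 14.8, 23.2 and 28.5 (log2 fold change 3.13, SE 0.34, adjusted p = 0.002), with WT at 27.4 to 59.8. L1M3d, an old LINE-1 subfamily, was at 70.8 and 40.3 against 11.8, 15 and 11.8 (2.11, adjusted p = 0.028), and LTR37-int at 51.5 and 56.1 against 21.8, 14.6 and 20 (1.51, adjusted p = 0.032). On leaving out any single Daxx-KO library, IAPLTR3-int, IAPEY4_I-int and RLTR13A1 kept their calls. L1M3d, LTR37-int, IAPA_MM-int and MMERVK10D3_I-int lost theirs in each of those fits. Between 2 and 6 subfamilies were called when 1 of the 5 libraries was left out, the lowest number without DKO replicate 1.

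Summed by family, 0 of 24 families were called with edgeR (0.00%), 2 had an unadjusted p under 0.05, and DESeq2 called 2. These 2 families with a low p were IAP and satellites. IAP reads were 12604 and 12299 CPM in DKO and 14805, 22751 and 18154 in Daxx-KO, without overlap (-0.58, SE 0.17, adjusted p = 0.16). Satellite reads were 8189 and 7580 against 9758, 11042 and 9831 (-0.37, SE 0.10, adjusted p = 0.16). For LINE-1, the most abundant LINE family, the values were 187137 and 217767 against 199752, 192557 and 197090 (0.04, SE 0.08, adjusted p = 0.95). ERV1 reads were 27602 and 20609 against 26759, 72570 and 27194, Daxx-KO replicate 2 standing far above the others (-0.81, SE 0.47, adjusted p = 0.45). The log2 fold changes of the other 20 families lay between -0.53 and 0.11.

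**Figure D4:**
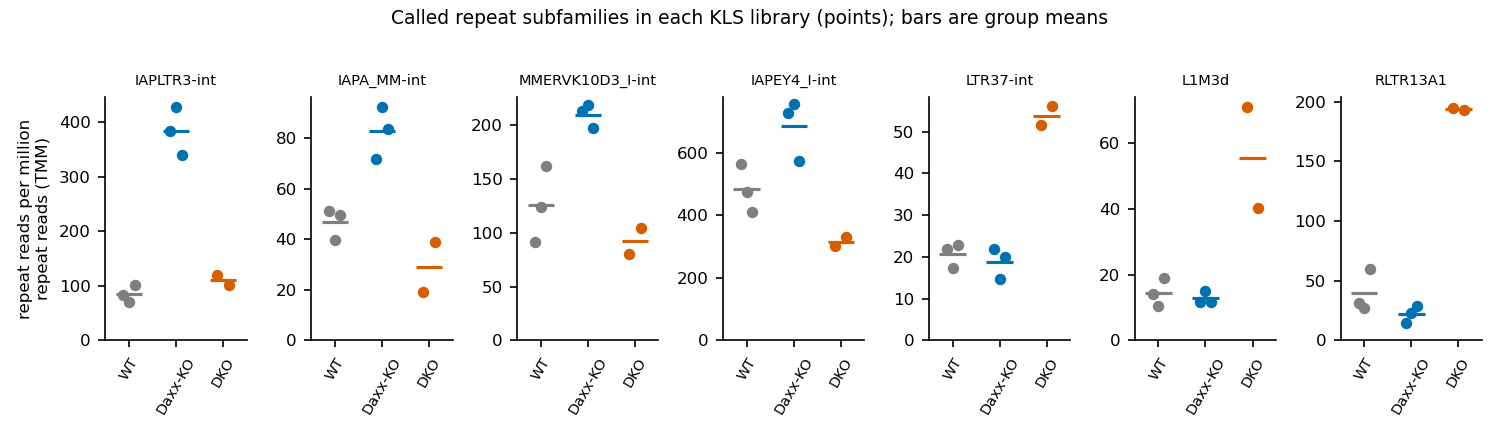
CPM of repeat reads (linear axes from 0, after TMM scaling) of the 7 called subfamilies in each WT, Daxx-KO and DKO library of KLS cells, with points for libraries and bars for group means. The 4 ERVK internal parts are lower in DKO than in Daxx-KO, and RLTR13A1 is at 194.6 and 193.3 in DKO against 14.8 to 59.8 in the other libraries.

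The WT libraries of the same table place the Daxx-KO and DKO levels. Against WT, 1404 genes were higher (9.24%) and 1277 lower (8.40%) in DKO, and 28 were higher (0.184%) and 11 lower (0.0724%) in Daxx-KO. These contrasts share libraries with the main one, so only the values are set side by side. Flt3 was lower in DKO than in WT (log2 fold change -2.66, adjusted p = 0.00031) and was not called in Daxx-KO (1.02, adjusted p = 0.14). For Cebpa the changes over WT were 2.48 in DKO (adjusted p = 0.002) and 0.11 in Daxx-KO (adjusted p = 0.92). Dntt went the other way round, at -1.34 in DKO (adjusted p = 0.063) and 2.62 in Daxx-KO.

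A separate Pu.1 line gave an independent set of KLS libraries at 3 weeks, 2 of Pu.1-KO and 2 of WT, in a table normalized on its own. The values of this line carry animal numbers that no label gives. Genotype was therefore inferred from the endings C and T of these numbers in its repeat counts, read as control and treatment. Genes detected numbered 29391 and 30291 in Pu.1-KO and 25662 and 27548 in its WT. Whether this difference bears on the calls was not tested. There 110 of 23459 genes were higher in Pu.1-KO (0.469%) and 80 lower (0.341%) by limma. Of the 1239 genes called higher in DKO that could be tested in that table, 20 were called higher there too (1.61% of them, 18.2% of the 110) and 3 were called lower. Of 1097 called lower in DKO, 24 were called lower there (2.19% of them, 30.0% of the 80). Only 49 of the 110 were tested in the main comparison, but 79 of the 80 were. The shares of 18.2% and 30.0% are therefore not on the same base. The median log2 fold change in the Pu.1 line was -0.10 for genes higher in DKO and -0.92 for genes lower in DKO, beside 0.12 for all genes of that table. The value of 0.12 also covers genes that were not tested in the main comparison, so the bases differ.

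Some of the largest rises in DKO recurred in that line, and Ccno and Rhou were not among the genes called there. Thbs4 was at 3568 and 1599 in Pu.1-KO against 40.66 and 80.17 in its WT (log2 fold change 5.36, SE 0.58, adjusted p = 5.1e-16), and Mybpc3 at 4894 and 2292 against 108.4 and 91.14 (5.06, SE 0.57, adjusted p = 1.3e-14). Pcdh11x was at 630.4 and 1337 against 123.3 and 249.8 (2.38, adjusted p = 0.019), and Lrg1 and Chit1 were called higher there too, at 2.21 and 2.35. Falls were shared as well: Kcnk12 was at 546.2 and 328.3 against 2070 and 2125 (-2.31, adjusted p = 0.026), Cd34 at 849.1 and 482.6 against 3689 and 2191 (-2.15, adjusted p = 0.047), and Sox4 at 767.3 and 277.8 against 2517 and 2203 (-2.35, adjusted p = 0.023). Spi1 itself was at 2920 and 1307 in Pu.1-KO against 2764 and 2080 (-0.30, adjusted p = 0.75), so a lower count of the gene was not detected in that line either.

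Elane, Ngp, Cebpa and Cebpe did not pass the test in the Pu.1 line, unlike the granule gene Lrg1 given above. Elane was at 18080 and 6413 in Pu.1-KO against 7994 and 6512 (0.58, SE 0.86, adjusted p = 0.63), and Cebpa at 580.1 and 127.4 against 1133 and 419.4 (-1.34, SE 0.58, adjusted p = 0.14). Ngp was at 68897 and 33912 against 13951 and 7833 (2.21, adjusted p = 0.19), and Cebpe at 759.1 and 473.6 against 225 and 233.8 (1.38, SE 0.58, adjusted p = 0.13). With 2 libraries a group and standard errors of this size, smaller changes would not be detected, and the difference between the lines was not tested. The 3 genes called higher in DKO and lower in the Pu.1 line were C1qtnf12, Tmem214 and Hba-a1, chosen after their values were seen.

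In granulocyte–monocyte progenitors (GMPs) of the same genotypes at 3 weeks, 8 of 13714 genes were called higher in DKO than in Daxx-KO (0.0583%). Of these, 5 were also called higher in KLS cells, namely Thbs4, Mybpc3, Clu, Trib1 and 1700030N03Rik, the last 3 named after their values were seen. By their animal numbers, the GMPs came from the same mice as the KLS libraries. A change seen in both cell types is therefore not a replication in other mice. Thbs4 was at 2061 and 498.1 in DKO GMPs against 5.86, 2.85 and 3.95 (log2 fold change 7.64, adjusted p = 0.013). Mybpc3 was at 4579 and 996.2 against 28.32, 55.12 and 15.81 (6.14, adjusted p = 0.022). Elane, at 30067 and 48247 against 37690, 20621 and 36489, was high in both groups of GMPs (0.32, adjusted p = 0.95). Cebpe likewise was at 1091 and 868 against 594.7, 941.9 and 601.9 (0.48, adjusted p = 0.92). Flt3 was at 105.5 and 187.4 against 933.6, 755.6 and 1086, without overlap, and did not pass (-2.69, adjusted p = 0.1).

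**Figure D5:**
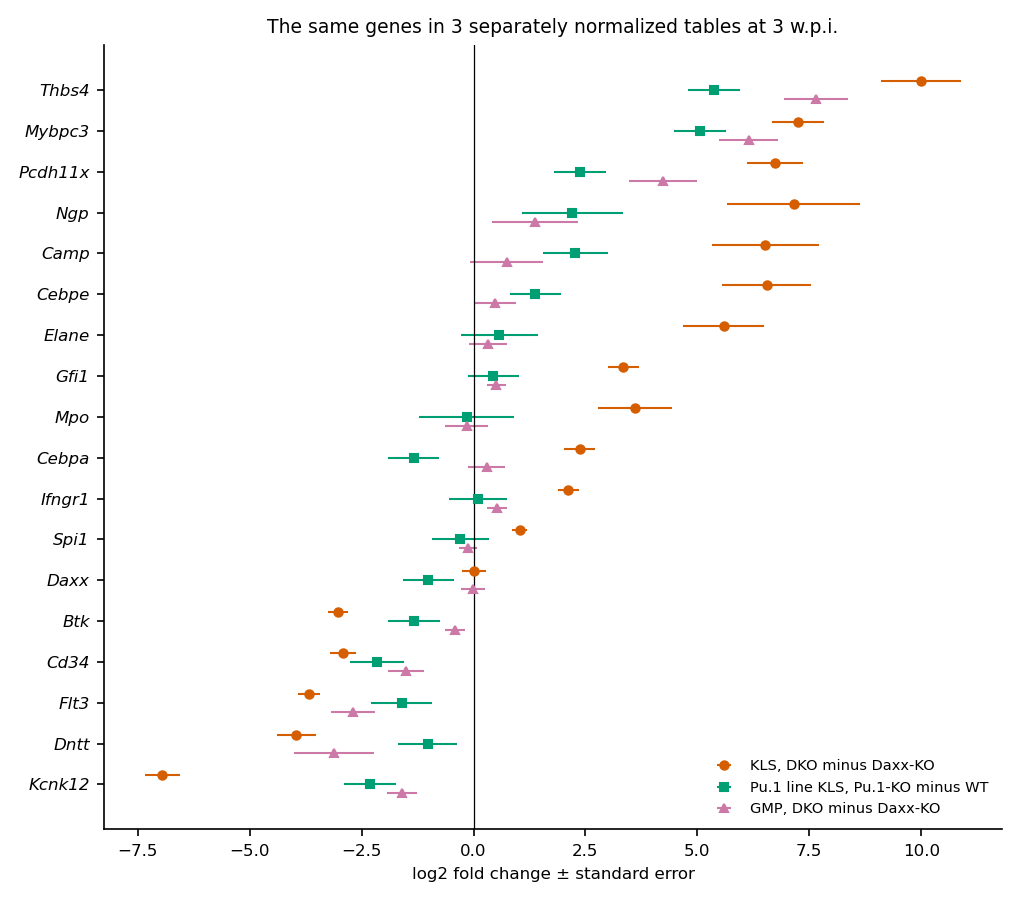
Log2 fold change with its standard error of 18 genes in 3 tables normalized separately, for DKO over Daxx-KO in KLS cells (circles), Pu.1-KO over WT in KLS cells of the Pu.1 line (squares) and DKO over Daxx-KO in GMPs (triangles). Thbs4 is at 9.99, 5.36 and 7.64 in that order and Mybpc3 at 7.25, 5.06 and 6.14, whereas Elane is at 5.58, 0.58 and 0.32.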

How the data were processed

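RNA-seq libraries of sorted KLS cells, GMPs and KLS cells of a Pu.1 line at 3 weeks were analysed. Per the methods and labels, reads were processed by the authors with CASAVA 1.8.4, cutadapt 1.13 and STAR 2.5.3 on mm10, and the deposited values are normalized counts, a signal equal to the read count divided by 1 DESeq2 1.16.1 size factor per library. The counter, the use of strand and the library kit are not given unambiguously in the sources used here. Repeats were deposited by the authors as raw counts per subfamily. Dividing by the step of each library gave whole reads for 100% of values, within 0.01.

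For genes, log2(normalized count + 1) was fitted with limma 3.58.1 (trend) over all 8 KLS libraries, for genes with a mean of 10 or more, and genes were called at a Benjamini-Hochberg adjusted p under 0.05 over all genes tested. Fold changes on this scale understate changes of low genes. Repeats were tested with the edgeR 4.0.16 quasi-likelihood test after TMM scaling and filterByExpr, on counts joined from 2 tables whose WT columns were identical. All tests were two-sided. edgeR and DESeq2 1.42.0 were also run on recovered reads. R 4.3.3 and Python 3.11.15 were used, and the scripts were tested on simulated data.

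Replicates are separate animals by their numbers. Named genes were Daxx, Spi1, Fbp1, Fbp2, the 8 largest rises and falls with a mean of 50 or more, the 5 largest with a mean of 1000 or more, and up to 4 called members and the first 2 of each list; immunoglobulin segments and Gm or Rik models were counted but passed over. Any other gene was named after its values were seen. One gene that this rule names is not reported here. The members and lists were chosen with earlier results of these data known. Of 111 value columns, 80 were not used. Alternatives were another pseudocount, filters, TMM scaling, other tools, the replicate number as a block and leaving out each library.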

Additional observations from a re-analysis of the deposited data

Results flagged for a closer look

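In 2 named genes the libraries moved one way in KLS cells and the other way in GMPs, every DKO library lying below all Daxx-KO libraries in KLS cells and above them in GMPs. Csf2rb2 had a log2 fold change of DKO over Daxx-KO of -3.37 in KLS cells and 0.648 in GMPs, where it was at 568.2 and 491.2 in DKO against 264.7, 480 and 300.5 in Daxx-KO. Reads of Csf2rb2 could have been divided with its near copy Csf2rb. Gata2 had -1.21 in KLS cells and 1.639 in GMPs, where it was at 3302 and 1848 in DKO against 784.2, 765.1 and 829.2 in Daxx-KO. Neither gene passed in GMPs (limma adjusted p = 0.6 for Csf2rb2 and 0.18 for Gata2). The 2 tables were normalized separately, and the difference between the cell types was not tested.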

How the results depend on the processing

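With the processing alternatives, the number of genes called stayed between 1958 and 2963 of a main count of 2340, the lowest without a filter on low values and the highest with DESeq2. TMM scaling gave 2337 (1212 higher and 1125 lower) and edgeR on recovered reads 2126 (1160 higher and 966 lower). Leaving out 1 library gave 672 to 2481 genes, 334 to 1339 higher and 338 to 1155 lower. The lowest values were those without DKO replicate 1. Repeat subfamilies numbered 16 with library sizes from gene reads, 29 with DESeq2 and 2 to 6 with 1 library left out, against 7. Repeat families numbered 2 with library sizes from gene reads, 2 with DESeq2 and 0 to 1 with 1 library left out. No called gene named here changed direction, while some genes that were not called, such as Atrx, did. The excess of genes called higher over genes called lower did not hold on leaving out either DKO library. The cause of these moves was not tested, except that leaving out a DKO library leaves 1, which is then assumed to vary like the other groups. With 2 DKO libraries, small changes in variable genes cannot be detected.

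Same-numbered DKO and Daxx-KO libraries share only a number, and their deviations correlated at -0.112 and -0.214. The fit with the replicate block called 1283 genes, 752 higher and 531 lower, of which 1205 were shared with the main result, and 7 subfamilies. The same libraries without the block gave 2457 genes.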

Other observations

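Some gene families outside the lists were read after the values were seen. Of the thrombospondins, Thbs1, a matrix protein that binds CD36 and CD47, was at 23256 and 26141 in DKO against 353, 649.6 and 901.8 in Daxx-KO (log2 fold change 5.38, SE 0.56, limma adjusted p = 0.00039), and rose with Thbs4. Thbs2 was at 31.62 and 18.31 against 0, 7.18 and 5.23 and did not pass (adjusted p = 0.14), and Thbs3 was listed at 0. Of the Eph receptors, which guide cells by contact, 3 that were called lower are given, and the other members are not described. Among all genes tested, 7.22% were called lower, and without a count over the family these 3 cannot be set against that share. Ephb2 was at 59.4 and 36.62 against 1281, 847 and 913.3 (-4.39, SE 0.32, adjusted p = 9.1e-05). Epha2 was at 5.75 and 2.89 against 72.41, 233.3 and 47.08 (-4.20, adjusted p = 0.0059). Epha7 was at 51.74 and 157.1 against 359.8, 219.8 and 247.9 (-1.57, adjusted p = 0.046). In each of the 3 receptors both DKO libraries lay below all Daxx-KO libraries, as in every gene called lower.

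Clu, the secreted chaperone clusterin, was at 3434 and 2858 in DKO against 143.7, 74.5 and 227 in KLS cells (4.53, limma adjusted p = 0.00039). It was called higher in GMPs of the same mice as well (4.996, limma adjusted p = 0.026). Trib1, a pseudokinase that promotes degradation of C/EBP alpha, was at 499.2 and 498.3 against 149.3, 139.1 and 163.2 in KLS cells (1.72, adjusted p = 0.031) and was called higher in GMPs (2.54, adjusted p = 0.041).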
